A study of Saccharomyces cerevisiae with 4 samples.

Results

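Genes for the oxidation of fatty acids were followed in strain S288c of the budding yeast Saccharomyces cerevisiae across a shift in nitrogen supply. The set holds 10 genes, taken by name from the 6301 open reading frames (ORFs) of the array table: PXA1 (YPL147W), FAA2 (YER015W), POX1 (YGL205W), POT1 (YIL160C), SPS19 (YNL202W), TES1 (YJR019C), YAT1 (YAR035W), YAT2 (YER024W), PEX11 (YOL147C) and OAF1 (YAL051W). No measured value entered that choice by rule, but the genes were picked with earlier results of these data known. The nitrogen-rich culture grew in synthetic complete (SC) medium, shaken at 160 rpm and 30°C, and reached an OD600 of 0.4. For the culture poor in nitrogen, cells were taken from SC and kept for 12 h in minimal medium (MM). This medium held 0.025% ammonium sulfate and lacked adenine and amino acids. Both cultures were of the same strain, and cDNA was made from 2 µg of mRNA with oligo-dT, a primer for transcripts with a poly-A tail. Each spotted array was hybridized with MM and SC together, one in the dye Cy5 and the other in Cy3, and the 4 arrays comprised both dye orientations of replicates 1 and 2. Minimal medium differs from SC in more than nitrogen, so a difference between the media cannot be assigned to nitrogen alone. The MM cells also had a further 12 h of culture, so time and growth state cannot be told apart from the medium.

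In budding yeast the beta-oxidation of fatty acids takes place in the peroxisome. Long-chain acyl-CoA enters through the transporter Pxa1-Pxa2, medium-chain acids are activated inside by Faa2, and the core spiral is run by the oxidase Pox1, the bifunctional enzyme Fox2 and the thiolase Pot1. The product acetyl-CoA leaves as carnitine ester or by way of the glyoxylate cycle, and the transcription factors Oaf1 and Pip2 are known to induce many of these genes on oleate, while glucose represses them. Not every gene of the set encodes a peroxisomal protein: Yat1 is a mitochondrial and Yat2 a cytosolic carnitine acetyltransferase, and Oaf1 acts in the nucleus.

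All values below are log2 ratios of MM over SC, and a gene with a positive value is called abundantly expressed in MM. The titles of the arrays assign the dyes to the media in the opposite way to the annotations of the channels, so this direction is likely rather than settled. It rests on 5 of 5 genes for which the text of the study gives a direction of MM over SC with the same primer and whose deposited values have that sign. If the direction were the other one, every sign would turn, and so would the ranks below: of 3765 ORFs, POT1 would rank 3744, PEX11 3657, TES1 3446, POX1 3293 and YAT2 36. The labels MM in Cy5 and SC in Cy5 follow the titles of the arrays. By the annotations of the channels these labels would swap, and each dye difference would change sign. A ratio compares the media for 1 gene and holds no level, so it cannot say which gene had more transcript. In a bulk culture, more transcript per cell and more cells with the transcript cannot be told apart.

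The arrays carried 4122 to 5941 values with medians between -0.06 and 0.05, and 3765 ORFs had a value on all 4 arrays. Blank spots were concentrated in replicate 2, where 30.3% and 34.6% of ORFs had no value, against 5.71% and 7.25% in replicate 1. In 4 runs of neighbouring ORFs the replicates did not correlate gene by gene (r = 0.042 across 771 genes, against 0.959 across the other 2994). Which replicate follows the gene names inside the runs was not settled, so values printed below for a gene inside a run may belong to another gene, and a mean over its replicates may mix genes. All 10 genes of the set lie outside these runs. In the 29 ORFs around each of them the correlation of the replicates ran from 0.899 to 0.990, over 10 to 28 genes with values on all arrays.

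Of the 10 genes, 7 had a value on all 4 arrays and were tested. The fit was limma's moderated test of the mean of the 2 replicates (dye orientations averaged) against 0, two-sided, with Benjamini-Hochberg adjustment over all 3765 ORFs, and an adjusted p of at most 0.05 made a call. In this fit 5 of the 7 genes were called, against 33.5% of all ORFs and 40.4% of those outside the runs, where all 7 lie. The 4 abundantly expressed in MM were POT1, PEX11, TES1 and POX1, and the share of all ORFs called in that direction was 16.5%. The 1 meagerly expressed in MM was YAT2, against 17% of all ORFs. SPS19 and FAA2 did not pass the test, and PXA1, YAT1 and OAF1 had too few values to enter it. The median log2 ratio of the 7 genes was 0.71, where that of all ORFs was -0.02. At least a 2-fold difference was seen in 3 of the 7 (POT1, PEX11 and YAT2) and in 14.1% of all ORFs.

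**Figure D1:**
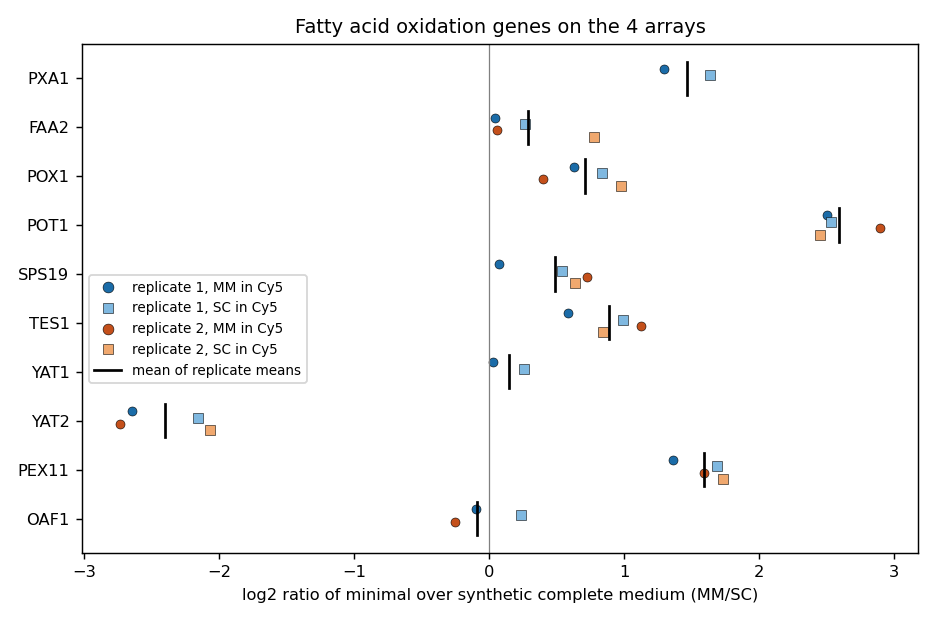
Log2 ratio of MM over SC (x axis) for the 10 genes (y axis, in order of pathway step), with circles for arrays with MM in Cy5, squares for arrays with SC in Cy5, blue for replicate 1, orange for replicate 2 and a bar at the mean of the replicate means. POT1 lies between 2.45 and 2.90, YAT2 lies between -2.73 and -2.07, and PXA1 and YAT1 have points in replicate 1 only.

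Transport and activation come first in the pathway. PXA1, which encodes 1 subunit of the peroxisomal long-chain acyl-CoA transporter, was measured only in replicate 1, with log2 ratios of 1.29 when MM carried Cy5 and 1.63 when SC did. Both arrays put it above 0, with a mean of 1.46, a 2.76-fold difference that has no second replicate and no test. PXA2, which encodes the partner subunit, gave 1.51 on both arrays of replicate 1, within -0.22 and 0.13 of PXA1. In replicate 2 PXA2 gave 0.15 and 0.22, but it lies inside one of the runs where the replicates do not correlate, so its values cannot be set against a replicate. FAA2, the medium-chain acyl-CoA synthetase of the peroxisome, gave 0.04 and 0.06 with MM in Cy5 and 0.27 and 0.78 with SC in Cy5. All 4 values were above 0 and the highest came from 1 array, SC in Cy5 of replicate 2. The mean was 0.29 ± 0.18 (SD, n = 2), a 1.22-fold difference that was not called (adjusted p = 0.157 by limma).

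The acyl-CoA synthetases that act on long chains outside the peroxisome give FAA2 a point of comparison. FAA3 fell, with a mean of -1.03 ± 0.05 (SD, n = 2; adjusted p = 0.0143 by limma), but without the replicate 2 array that had MM in Cy5 it was -0.76 and not called (adjusted p = 0.0961). On each of the 4 arrays FAA2 lay above FAA3, by 1.14 to 1.59 on the log2 scale. FAA4, the major synthetase for imported fatty acids together with Faa1, had a mean of 0.29 ± 0.06 and was not called (adjusted p = 0.101). The difference of FAA2 and FAA4 on single arrays ran from -0.29 to 0.14, with either gene higher on some arrays. FAA1 lies inside a run and had replicate means of -0.49 and 0.00.

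The core spiral followed. POX1, the acyl-CoA oxidase of the first step, gave 0.63 and 0.40 with MM in Cy5 and 0.84 and 0.97 with SC in Cy5. The 4 arrays were all above 0, and the values with SC in Cy5 were the higher pair. The mean was 0.71 ± 0.03 (SD, n = 2), a 1.63-fold rise (adjusted p = 0.0227 by limma) that ranked POX1 at 473 of 3765 ORFs. Without the array with SC in Cy5 of replicate 2 the mean was 0.56 and POX1 was no longer called (adjusted p = 0.0770). FOX2, the gene of the next step, lies inside a run and was measured on 3 arrays, with -0.06 and 0.04 in replicate 1 and 0.31 in replicate 2.

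POT1, the 3-ketoacyl-CoA thiolase that ends each turn of the spiral, had the highest ratio of MM over SC in the set. Its log2 ratios were 2.50 and 2.90 with MM in Cy5 and 2.53 and 2.45 with SC in Cy5. The 4 values span less than 0.5 on a log2 scale and neither dye orientation is set apart from the other. The mean was 2.60 ± 0.11 (SD, n = 2), a 6.04-fold rise (5.72-fold in replicate 1 and 6.38-fold in replicate 2; adjusted p = 0.00864 by limma). POT1 ranked 22 of 3765 ORFs, with 99.4% of them below it. The genes of the first and last steps of the spiral thus differed in size of response: POT1 exceeded POX1 on each array, by 1.48 to 2.50, with a mean of 1.89 ± 0.14 over the replicates. This difference was not given a test of its own.

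The auxiliary enzymes handle chains that the core spiral cannot finish. SPS19, the 2,4-dienoyl-CoA reductase for unsaturated chains, gave 0.07 and 0.72 with MM in Cy5 and 0.54 and 0.63 with SC in Cy5. One array, MM in Cy5 of replicate 1, stood near 0 while the other 3 lay close together. The mean was 0.49 ± 0.27 (SD, n = 2), a 1.41-fold difference that did not pass the threshold (adjusted p = 0.0835 by limma, unadjusted p = 0.0368). In the fit with the runs left out, which called 64.1% of ORFs, SPS19 was called (adjusted p = 0.000142). Without the array near 0 the mean was 0.61 and SPS19 was called (adjusted p = 0.0434). ECI1 and DCI1, which encode the enoyl-CoA isomerase and its relative, both lie inside runs. ECI1 had 0.65 and 0.60 in replicate 1 only, and DCI1 had replicate means of 0.39 and 1.15.

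SPS18, the neighbour of SPS19 in the genome annotation and like it a gene named for sporulation, moved in the other direction. It was looked up after its values were seen. SPS18 fell by 1.20 on the log2 scale, to a mean of -1.20 ± 0.01 (SD, n = 2; adjusted p = 0.0118 by limma). SPS19 lay above SPS18 on each of the 4 arrays, by 1.40 to 2.27.

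TES1, the peroxisomal acyl-CoA thioesterase, gave 0.59 and 1.13 with MM in Cy5 and 0.99 and 0.85 with SC in Cy5. All 4 values were well above 0, and the lowest and the highest came from the same dye orientation. The mean was 0.89 ± 0.14 (SD, n = 2), a 1.85-fold rise (adjusted p = 0.0200 by limma) at rank 320 of 3765. CTA1, the peroxisomal catalase that removes the hydrogen peroxide made by the oxidase, had 1.13 and 1.54 in replicate 1 only and was not tested.

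The carnitine acetyltransferases pass acetyl groups between compartments. YAT2 gave -2.65 and -2.73 with MM in Cy5 and -2.16 and -2.07 with SC in Cy5. It was meagerly expressed in MM on every array, and the pair with SC in Cy5 was the less negative. The mean was -2.40 (adjusted p = 0.00864 by limma), which is a 5.28-fold difference, and 0.930% of ORFs lay below it (99.0% with the signs turned). The SD of its replicate means was 0.00095, taken after the dye orientations were averaged, and far smaller than the distance between its single arrays. YAT1 was measured in replicate 1 only, with 0.03 and 0.26, a mean of 0.14 that was not tested. On those arrays YAT1 lay above YAT2 by 2.68 and 2.42, so the low ratio of YAT2 was not shared by YAT1 there.

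The other genes of carnitine transfer were read with more difficulty. CAT2, the acetyltransferase of peroxisomes and mitochondria, lies inside a run, and its 4 values of -0.68, -0.97, -0.15 and -2.80 spread too widely for a call (adjusted p = 0.134 by limma). CRC1, the mitochondrial carnitine carrier, also lies inside a run and had -1.67 and -1.51 in replicate 1 only. AGP2, which is known as a plasma membrane transporter for carnitine, had a mean of -0.03 ± 0.26 (SD, n = 2) and was not called (adjusted p = 0.876).

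**Figure D2:**
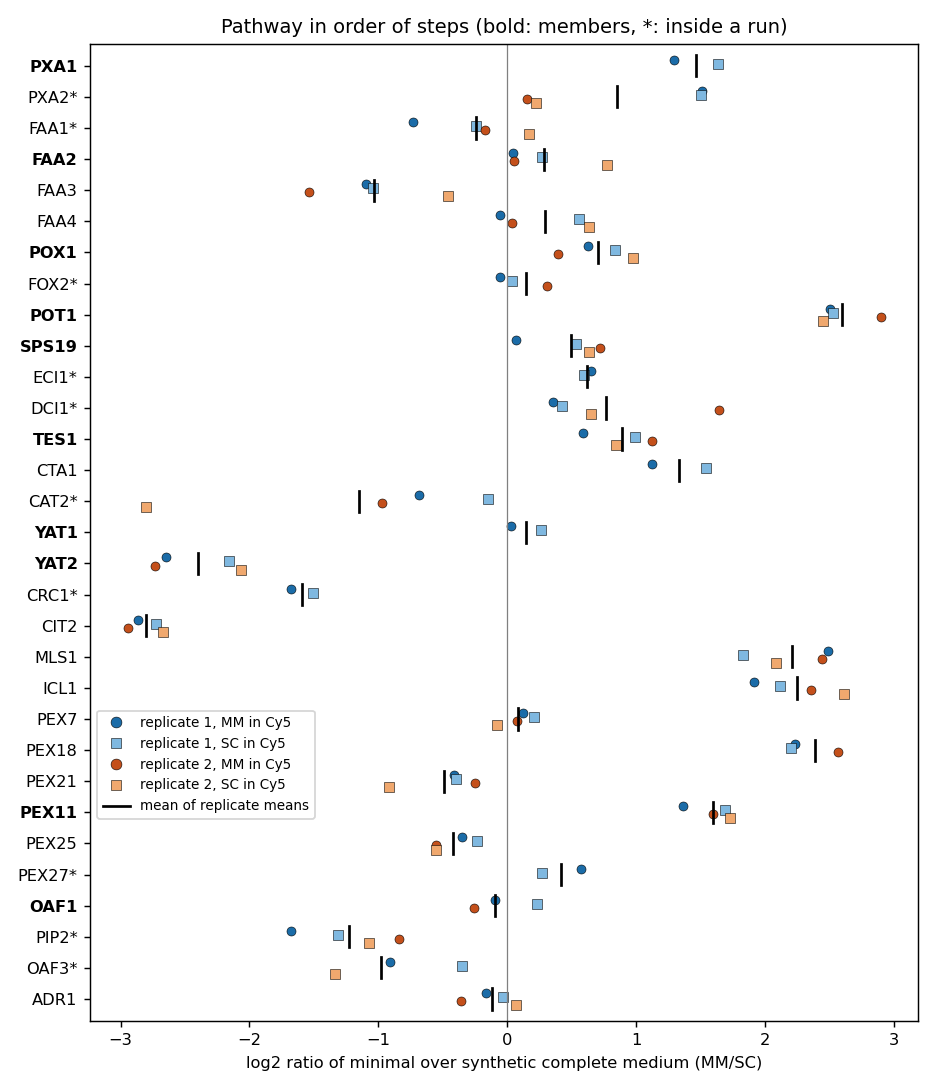
Log2 ratio of MM over SC (x axis) on single arrays for genes of the pathway in order of steps (y axis), with circles for MM in Cy5, squares for SC in Cy5, blue for replicate 1, orange for replicate 2 and a bar at the mean of the replicate means. Bold names are the 10 genes and an asterisk marks genes inside a run, where the replicates do not correlate; POT1 exceeds POX1 on every array, and YAT2 and CIT2 are the lowest genes drawn that lie outside the runs.

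PEX11 encodes a peroxisomal membrane protein that promotes the division of the organelle. Its log2 ratios were 1.36 and 1.59 with MM in Cy5 and 1.69 and 1.73 with SC in Cy5. The 4 values lay close together, all far above 0. The mean was 1.59 ± 0.10 (SD, n = 2), a 3.02-fold rise (adjusted p = 0.00977 by limma) at rank 109 of 3765 ORFs. PEX25, a relative of PEX11 with a role in the same process, had a mean of -0.42 ± 0.18 and was not called (adjusted p = 0.0785). PEX11 lay above PEX25 on each of the 4 arrays, by 1.72 to 2.29. PEX27, the other relative, lies inside a run and had 0.57 and 0.27 in replicate 1 only.

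OAF1 encodes the oleate-activated transcription factor and was measured on 3 arrays, with -0.09 and -0.26 for MM in Cy5 and 0.23 for SC in Cy5 of replicate 1. Its sign changed with the dye orientation, and it was the 1 gene of the 10 whose available values did not share a sign. The mean of its replicate means was -0.09 ± 0.23 (SD, n = 2). When ORFs with at least 1 array in each replicate were fitted, OAF1 was not called (adjusted p = 0.627 by limma). PIP2, its dimer partner, was called as lower at -1.23 ± 0.38 (adjusted p = 0.0269), but lies inside a run, so that mean may not be of PIP2 alone. On the 3 arrays that measured both, OAF1 lay above PIP2 by 0.58 to 1.59.

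In order of mean log2 ratio the 10 genes ran POT1, PEX11, PXA1, TES1, POX1, SPS19, FAA2, YAT1, OAF1 and YAT2. Neighbours in this order whose single arrays did not overlap were POT1 and PEX11, PXA1 and TES1, and OAF1 and YAT2. All other neighbours overlapped when values were compared across arrays. Compared on the same array, TES1 and POX1, POX1 and SPS19, and SPS19 and FAA2 changed order between arrays, so their order is not set. PEX11 lay above PXA1, FAA2 above YAT1 and YAT1 above OAF1 on both arrays they shared, but by small margins. FAA2 and YAT1, the closest pair, had 0.045 and 0.028 with MM in Cy5, and 0.267 and 0.261 with SC in Cy5. The arrays shared are of replicate 1 only, and these differences were not tested, so this order is not set either.

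The spread between replicates was compared with that of other genes. For the 7 genes tested the replicates had a median SD of 0.11 (log2 scale), for all ORFs 0.12 and for ORFs outside the runs 0.099. All 4 arrays shared a sign in 7 of these 7 genes, in 59.7% of all ORFs and in 67.2% of ORFs outside the runs. The largest SD was that of SPS19.

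**Figure D3:**
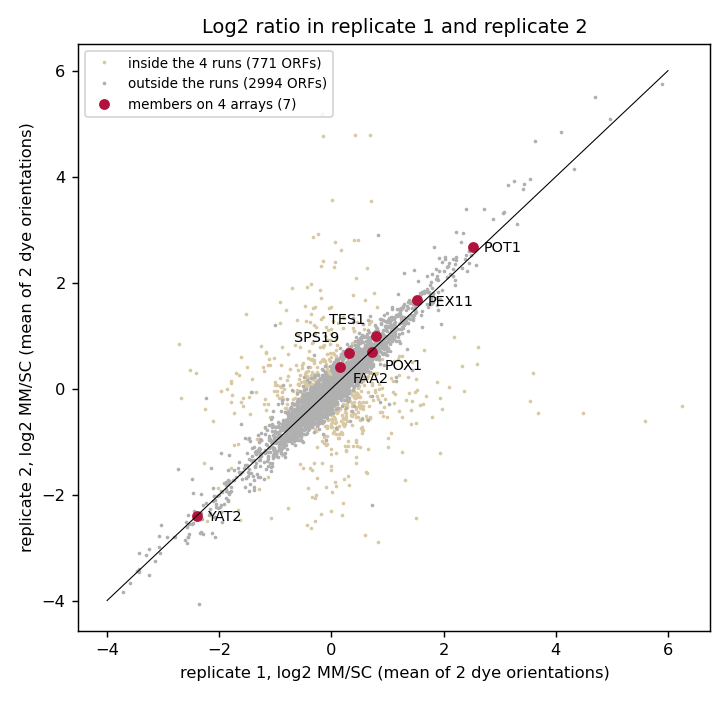
Log2 ratio of MM over SC in replicate 1 (x axis) and replicate 2 (y axis), each the mean of both dye orientations, for ORFs outside the runs (grey), inside the runs (tan) and the 7 tested genes of the set (red, named), with the line of equal values. The 7 genes lie near the line, from YAT2 at -2.40 to POT1 at 2.60.

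Dye orientation was compared gene by gene, and no gene of the set passed the test. The labels of orientation are those of the array titles, so the direction of each dye difference is not settled. The mean with SC in Cy5 was above that with MM in Cy5 in 6 of the 7 tested genes, as it was in 60.3% of all ORFs. The median size of this difference was 0.23 for the 7 genes and 0.22 for all ORFs. In a limma fit with a dye term, 0 of the 7 genes were called, against 0.0266% of all ORFs. At an unadjusted p at or under 0.05 there was 1 gene, YAT2, against 8.21% of all ORFs. For YAT2 the difference between the orientations was 0.58 on the log2 scale (dye term adjusted p = 0.568), and for FAA2, the next, it was 0.47. POT1 was the 1 gene of the 7 that was higher with MM in Cy5, with a difference of -0.21.

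The rest of the pathway was counted in lists drawn up by function, with earlier results of these data known, so the counts are descriptions. Of 15 other genes of beta-oxidation and fatty acid activation, 8 were tested, of which 1 was called higher and 1 lower, FAA3 as above. The gene called higher was ACB1, the acyl-CoA binding protein (0.47 ± 0.04, adjusted p = 0.0417 by limma). Its call was lost when any single array was left out. The median of the 8 was 0.11, and 25% of those tested were called, against 33.5% of all ORFs. As 6 of the 15 lie inside runs, the median over the 5 tested outside them was -0.08. Among those not tested, PCS60, a peroxisomal AMP-binding protein, had 0.51, 1.12 and 1.27 on 3 arrays, all above 0. It was called when ORFs with at least 1 array in each replicate were fitted (1.04 ± 0.32, adjusted p = 0.0350).

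Peroxins build and divide the organelle and import its enzymes. Of 28 genes of this list 22 were tested, with a median of 0.08. Of the 22, 3 were called higher and 4 lower, a share of 31.8% against 33.5% of all ORFs. Those higher were PEX19 (0.80 ± 0.15, adjusted p = 0.0250), a chaperone for peroxisomal membrane proteins, PEX22 (0.71 ± 0.14, adjusted p = 0.0281), the anchor of the ubiquitin-conjugating enzyme Pex4, and PEX34 (0.70 ± 0.11, adjusted p = 0.0259), which acts in peroxisome number. The largest falls were PEX17 (-0.79 ± 0.16, adjusted p = 0.0257) of the docking complex, PEX28 (-0.67 ± 0.01, adjusted p = 0.0239) and PEX21 (-0.49 ± 0.13, adjusted p = 0.0490). PEX21 was no longer called when any single array was left out. The 3 peroxins called higher in this fit had smaller means than the 1.59 of PEX11.

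Pot1 is imported by the receptor Pex7 with a co-receptor, Pex18 or Pex21. PEX18, which was singled out after its values were seen, had 2.23 and 2.57 when MM carried Cy5 and 2.20 on the replicate 1 array where SC did. All 3 values were far above 0, with a mean of 2.39 ± 0.25 (SD, n = 2), and PEX18 was called in the fit of ORFs with at least 1 array in each replicate (adjusted p = 0.0127 by limma). On the same 3 arrays it lay above PEX21 by 2.60 to 2.82. PEX7 had a mean of 0.08 ± 0.12 and was not called (adjusted p = 0.566).

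Acetyl-CoA use showed the most called genes among the lists. Of 15 genes of the carnitine and acetyl-CoA shuttle, the glyoxylate cycle and linked steps, 13 were tested, with a median of 2.21. Of the 13, 8 were called higher and 1 lower, a share of 69.2% against 33.5% of all ORFs. Over the 10 tested outside the runs the median was 2.20. The list also holds PCK1 and FBP1 of gluconeogenesis, both inside runs, and the acetate transporter ADY2. No carnitine gene of the list was called higher: CAT2 and AGP2 were not called, and CRC1 was not tested. The largest rises among the called genes were SFC1 (3.65 ± 0.31, adjusted p = 0.00864 by limma), the mitochondrial succinate-fumarate carrier, and MDH2 (2.59 ± 0.52, adjusted p = 0.0142), the cytosolic malate dehydrogenase. ACS1 (2.52 ± 0.10, adjusted p = 0.00864), an acetyl-CoA synthetase, came next. The gene called lower was CIT2, the peroxisomal citrate synthase of the glyoxylate cycle, at -2.80 ± 0.01 (adjusted p = 0.00864). YAT2 and CIT2 thus shared the direction, and YAT2 was the less negative on each of the 4 arrays, by 0.21 to 0.60.

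Among 9 regulators, 8 were tested, with a median of 0.12 over all and 0.36 over the 7 outside the runs. Of the 8, 3 were called higher and 1 lower, a share of 50% against 33.5% of all ORFs. Those higher were REG1 (0.80 ± 0.18, adjusted p = 0.0263), a regulatory subunit of the phosphatase Glc7, SIP4 (0.77 ± 0.13, adjusted p = 0.0246), an activator of gluconeogenic genes, and SNF4 (0.59 ± 0.10, adjusted p = 0.0337), a subunit of the Snf1 kinase. The 1 called lower was PIP2, inside a run. ADR1, an activator of peroxisomal genes, had a mean of -0.12 ± 0.04 and was not called (adjusted p = 0.367).

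Genes of fatty acid synthesis and of lipid droplets were counted beside oxidation. Of 11 genes of synthesis 9 were tested, with a median of 0.11. By limma 1 was called higher (ACC1, acetyl-CoA carboxylase, 0.67 ± 0.13, adjusted p = 0.0299) and 1 lower (BPL1, its biotin ligase, -0.74 ± 0.09, adjusted p = 0.0231). The share called was 22.2%, against 33.5% of all ORFs. The 12 genes of the lipid droplet list cover storage and also breakdown, by the lipases and steryl ester hydrolases TGL1 to TGL5, YEH1 and YEH2. Of 8 tested, limma called 0 higher (0 also at an unadjusted p at or under 0.05) and 2 lower, a share of 25% against 33.5% of all ORFs. Those 2 were LRO1 (-0.78 ± 0.11, adjusted p = 0.0228) and ARE1 (-0.65 ± 0.04, adjusted p = 0.0253), which make triacylglycerol and steryl esters. The median of that list was -0.24, and -0.65 over the 3 tested outside the runs, which were TGL2 (0.19), LRO1 and ARE1. Neither median is one of storage genes alone. Of the 20 called genes named from these lists, 15 were no longer called without the replicate 2 array that carried MM in Cy5, and those that were still called were SFC1, MDH2, ACS1, CIT2 and, inside a run, PIP2. Leaving out MM in Cy5 of replicate 1, SC in Cy5 of replicate 1 or SC in Cy5 of replicate 2 ended 6, 3 and 4 of these calls.

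**Figure D4:**
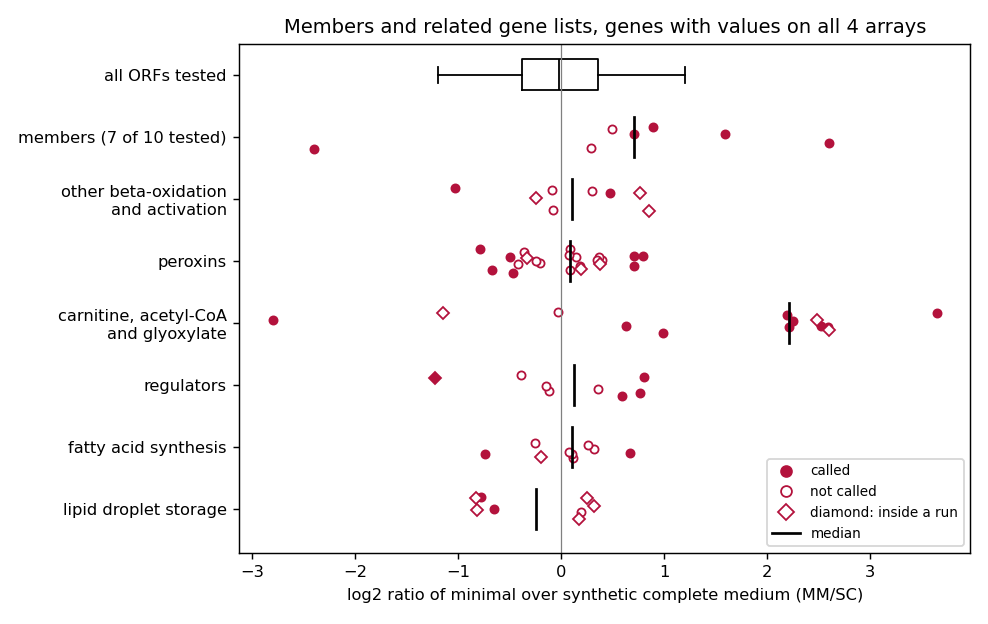
Mean log2 ratio of MM over SC (x axis) for the genes tested of the set and of each related list (y axis), with filled symbols for called genes, open symbols for others, diamonds for genes inside a run and a bar at the median; the box gives the quartiles of all ORFs tested and its whiskers reach the percentiles 5 and 95. The median of the set is 0.71, that of the carnitine, acetyl-CoA and glyoxylate list 2.21, and those of the other lists lie between -0.24 and 0.12.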

How the data were processed

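The deposited log2 ratios were used as given. The authors scanned with a GenePix scanner, subtracted background and scaled the arrays by mean-by-mean normalization of the spots that were well measured, which had to exceed background by 3 SDs of its pixels. Values are therefore relative to an array's mean; depth is not defined for arrays, and their number limits the precision. ORFs with no value are blank in the table. The direction of the ratios was not stated with the values. The genome build was not given in the sources used here. Each replicate was the mean of its dye orientations (n = 2). The 3765 ORFs measured on every array were fitted with limma 3.58.1 (lmFit, eBayes; R 4.3.3), with Benjamini-Hochberg adjustment over all ORFs. The study's methods name the Bayesian program BAGEL, which was not run. The fit was tested on simulated data. A second fit of the 4 arrays held a dye term beside the intercept.

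Members and gene lists were chosen with earlier results of these data known. Of each list up to 3 called genes with the largest change in each direction were named; relatives of members were taken from general knowledge, as protein identity was not computed. Gene names of 5801 of the 6301 ORFs came from RefSeq assembly R64; the same table gave neighbouring genes, and no coordinates or sequences are printed. The design text names biological replicates, and nothing says that they came from separate cultures. The study's methods state that each replicate had its own reverse transcription reaction. P-values therefore apply to these samples only. They do not rest on the spread of a gene's replicates alone, as moderation adds a variance shared by all ORFs fitted, those in runs included (prior df = 2.10). For YAT2 the replicate SD was 0.00095 and the standard error in the fit 0.0899. As a check of the numbers, the correlation of same-numbered deviations was 0.706 over all ORFs and 0.044 outside the runs. Alternatives changed how arrays were combined, which ORFs were fitted, centring, scale, moderation and which array was left out.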

Additional observations from a re-analysis of the deposited data

Results flagged for a closer look

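OAF1, the gene of the oleate-activated transcription factor, had opposite signs in the dye orientations: both arrays with MM in Cy5 were below 0 (-0.09 and -0.26) and the array with SC in Cy5 that measured it was above 0 (0.23). The mean with MM in Cy5 was lower by a difference of -0.41 on the log2 scale. With 3 arrays the difference was not tested for OAF1, whose mean of replicate means was near 0 (-0.09). YAT2 (-0.58) and FAA2 (-0.47) had larger differences in the same direction, and each kept its sign on all its arrays.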

How the results depend on the processing

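With 4 arrays and the replicate block (duplicateCorrelation), 1979 ORFs and 6 of the 7 tested genes of the set were called, the addition being SPS19 (adjusted p = 0.0154); the consensus correlation of the block was -0.241. With the runs left out, 1920 of 2994 ORFs (64.1%) and all 7 genes were called. With no moderation, 0 ORFs and 0 genes of the set were called by limma's unmoderated fit, with 877 ORFs and 4 of the genes at an unadjusted p at or under 0.05. Leaving out 1 array in turn gave 570 (without MM in Cy5 of replicate 2) to 1026 ORFs and 4 to 6 genes of the set. All 7 tested genes kept their direction under every alternative run. The dye term called 26 ORFs with the replicate block and 0 when any array was left out (56 to 311 before adjustment, at the same threshold), and no gene of the set in any of these fits. The spread of 2 replicates, the blank spots of replicate 2 and the unsettled dye direction limit these values.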
